A study of Mus musculus with 4 samples.

Results

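The Slit ligands and their Robo receptors were followed in sorted cells of the mouse retina, in which Ezh2 was either intact or conditionally deleted. The family counted 7 genes, the ligands Slit1, Slit2 and Slit3 and the receptors Robo1, Robo2, Robo3 and Robo4, of 21831 genes measured. All 7 had a usable FPKM value (fragments mapped to the gene, scaled to transcript length and to the size of the library) in all 4 libraries. The family was chosen from measured values: Slit2 was among the genes with the lowest level in the Cd73N library labelled Ezh2-cKO relative to its wild-type counterpart. The genotype values in Cd73N are therefore a description of the values that picked the family.

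RNA was sequenced from retina of slc:ICR mice at postnatal day 12, sorted by flow cytometry into cells with Cd73 on their surface (Cd73P) and cells without it (Cd73N). Cd73, the surface enzyme encoded by Nt5e, marks rod photoreceptors at this age, so Cd73N holds the other retinal cells, which include cones, bipolar cells, amacrine cells and Müller glia. The groups were formed by fraction and genotype, namely Cd73N from wild type, Cd73N from Ezh2-cKO, Cd73P from wild type and Cd73P from Ezh2-cKO. Each group held 1 library, so no spread between animals was available, and all comparisons are between single libraries. The Ezh2-cKO mice carried a floxed Ezh2 allele and DKK3-Cre, a Cre that acts in retinal progenitors from early embryonic stages and hence in all their descendants. Cells that enter the retina from outside, such as vascular cells and microglia, do not descend from those progenitors. The controls were normal littermates, and the number of retinas behind each library was not given in the sources used here.

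Slits are large secreted proteins that bind Robo receptors on growth cones and repel axons, and heparan sulfate chains on the cell surface help the ligand to bind. Robo1 and Robo2 are the main neuronal Slit receptors, Robo3 is a divergent receptor that in mammals binds Slit poorly, and Robo4 is best known from endothelium. Inside the cell, Robo receptors act through Slit-Robo GTPase-activating proteins, Abl kinases, Ena/VASP proteins and small GTPases. In the eye, Slit and Robo proteins are known for guiding retinal ganglion cell axons and for shaping retinal vessels. Ezh2, the gene targeted here, encodes the enzyme of Polycomb repressive complex 2 (PRC2) that methylates histone H3 at lysine 27, a mark found at silent promoters rich in CpG.

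The libraries were checked against their labels. Nt5e, the gene behind the sort, reached 125 FPKM in wild type and 123 FPKM under the Ezh2-cKO label in Cd73P, with 0.844 and 0.609 FPKM in the matching Cd73N libraries. Ezh2 was at 14.1 FPKM in wild-type Cd73N, 15.9 in the Cd73N library labelled Ezh2-cKO, 5.38 in wild-type Cd73P and 3.45 in the Cd73P library labelled Ezh2-cKO. The targeted gene was thus lower under the Ezh2-cKO label in Cd73P and not in Cd73N, and a gene-level value does not show which exons were read. Xist stood at 52.2, 240, 47.0 and 95.6 FPKM and the summed Y-linked genes at 26.8, 0.716, 27.9 and 0.496 FPKM in the same order, so the sex of the animals and the genotype cannot be told apart. Relative depth lay between 1 and 1.17 across libraries, and between 10354 and 12745 genes reached an FPKM of 1.

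The family was read at widely different levels, with Slit2 and Robo2 the highest in every library, although Slit2 was less than 2-fold above Robo1 in the Cd73N library labelled Ezh2-cKO. In wild-type Cd73N the order was Slit2 at 27.0 FPKM, Robo2 at 25.9, Slit1 at 1.96, Robo1 at 1.62, Robo3 at 0.945, Slit3 at 0.252 and Robo4 at 0.124. FPKM is a value per length of transcript, so levels of different genes can be set side by side. Within that order the deposited confidence bounds overlapped between Slit2 and Robo2 and between Slit1 and Robo1, and the other neighbours were separated. In the Cd73N library labelled Ezh2-cKO the order was Robo2 at 24.8 FPKM, Slit2 at 5.46, Robo1 at 3.02, Robo3 at 2.78, Slit1 at 2.03, Robo4 at 0.207 and Slit3 at 0.162, with overlapping bounds between Robo1 and Robo3 and between Robo4 and Slit3. The ligand Slit2 thus moved from a level like that of Robo2 to one well below it. In wild-type Cd73P, Slit2 at 1.11 FPKM and Robo2 at 0.980 had overlapping bounds, followed by Robo1 at 0.163, Slit1 at 0.104, Robo3 at 0.0963 and Robo4 at 0.0625, each overlapping the next, and Slit3 at 0.00454. In the Cd73P library labelled Ezh2-cKO, Slit2 was at 0.538, Robo2 at 0.413, Robo1 at 0.131, Slit1 at 0.121, Robo4 at 0.0725, Robo3 at 0.0326 and Slit3 at 0.0176 FPKM, and the single separated pair of neighbours was Robo2 and Robo1. The bounds cover counting error only.

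**Figure D1:**
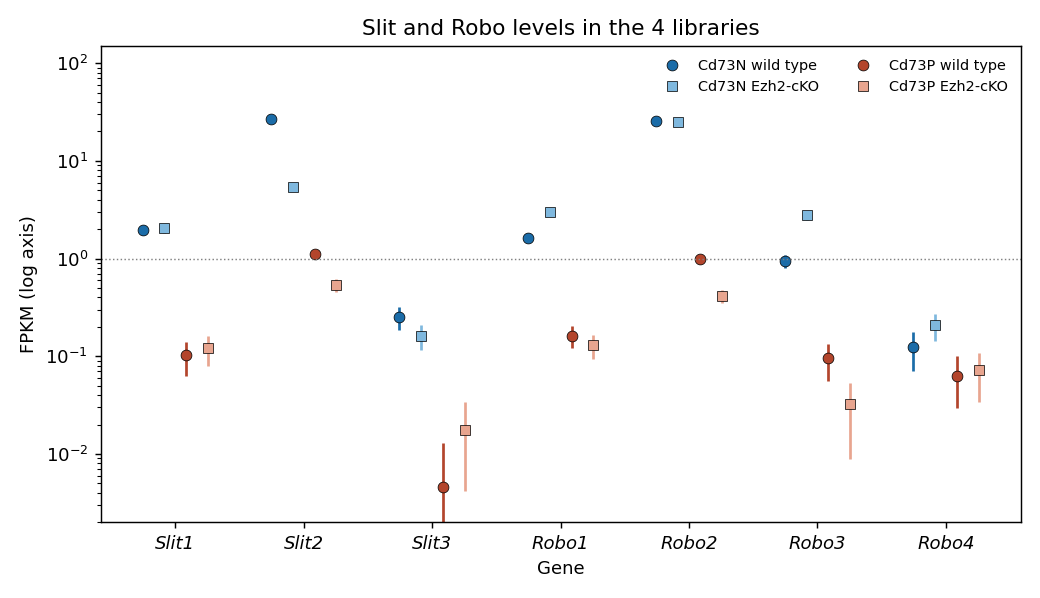
FPKM (log axis) of the 7 Slit and Robo genes in the 4 libraries, 1 library per group; vertical lines span the deposited confidence bounds, cut at the lower edge of the axis, and the dotted line marks 1 FPKM. In Cd73N, Slit2 and Robo2 lie near 27.0 and 25.9 FPKM in wild type, and Slit2 is at 5.46 FPKM and Robo2 at 24.8 FPKM under the Ezh2-cKO label.

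Among the ligands, Slit2 carried the genotype difference in Cd73N. Slit2 lies on the plus strand of chromosome 5 (mm9, chr5:48374394-48697017). Its Cd73N level was 27.0 FPKM in wild type and 5.46 FPKM in the library labelled Ezh2-cKO, corresponding to about 6001 and 1412 fragments implied by the deposited bounds. The level was 4.94-fold lower (95% interval 4.66 to 5.24 for counting error, exact binomial), a log2 ratio of FPKM + 1 of -2.11. Slit2 stood above 86.2% of genes in the wild-type library and above 59.4% in the other. Ranked by that log2 ratio among 6845 genes with an FPKM of at least 10 in either Cd73N library, Slit2 was the gene with rank 5, next to Irx6 (34.7 to 4.61 FPKM, log2 ratio -2.67) and Tacr3 (16.5 to 3.17 FPKM, log2 ratio -2.07). Irx6 encodes a homeodomain factor of bipolar cells and Tacr3 the neurokinin B receptor.

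In Cd73P, Slit2 was at 1.11 FPKM in wild type and 0.538 FPKM in the library labelled Ezh2-cKO, from about 361 and 185 fragments. The FPKM ratio was 0.483 (95% counting interval 0.402 to 0.578), and the log2 ratio of FPKM + 1 was -0.46, short of the 1.5-fold threshold on that scale. The direction was thus the same in both fractions, with the larger log2 difference in Cd73N.

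Slit2 lacked any overlap between its exons and those of another annotated gene. The 250 bases before its annotated start are shown because the targeted enzyme belongs to a complex known to act at CpG-rich promoters. They lie on the plus strand at chr5:48374144-48374393 (mm9), hold 25 CpG (in capitals) and are 69.6% G or C:
Slit2: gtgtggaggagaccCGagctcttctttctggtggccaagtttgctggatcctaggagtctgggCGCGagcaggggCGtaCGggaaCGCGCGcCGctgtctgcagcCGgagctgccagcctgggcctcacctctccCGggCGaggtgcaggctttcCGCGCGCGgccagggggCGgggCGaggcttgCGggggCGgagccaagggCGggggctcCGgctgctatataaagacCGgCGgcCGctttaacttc
The median over 20625 genes was 11 CpG in the same window (quartiles 3 and 20), and 15.3% of genes had at least as many as Slit2. Among the other ligands, Slit3 had 35 CpG, in a window that overlaps an annotated exon, and Slit1 had 7. No measurement of the histone mark was analysed here.

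Slit1, on the minus strand of chromosome 19 (mm9, chr19:41674747-41818346), hardly differed between genotypes. It was at 1.96 FPKM in wild-type Cd73N, 2.03 in Cd73N labelled Ezh2-cKO, 0.104 in wild-type Cd73P and 0.121 in Cd73P labelled Ezh2-cKO. The FPKM ratios between genotypes were 1.04 (95% counting interval 0.895 to 1.21) in Cd73N and 1.17 (0.693 to 1.99) in Cd73P, so a difference larger than these bounds was not seen between the libraries. Slit3, on the plus strand of chromosome 11 (mm9, chr11:34934958-35522009), was near the limit of detection. It was at 0.252 FPKM in wild-type Cd73N, 0.162 in Cd73N labelled Ezh2-cKO, 0.00454 in wild-type Cd73P and 0.0176 in Cd73P labelled Ezh2-cKO. The Cd73P values rested on about 1 and 6 fragments, at which no genotype difference was detectable. In Cd73N its FPKM ratio was 0.642 (95% counting interval 0.430 to 0.953), and the log2 ratio of FPKM + 1 was -0.11.

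Among the receptors, Robo1 and Robo3 were higher and Robo2 was nearly level between the Cd73N libraries. Robo3, on the minus strand of chromosome 9 (mm9, chr9:37223630-37240760), was at 0.945 FPKM in wild-type Cd73N, 2.78 in Cd73N labelled Ezh2-cKO, 0.0963 in wild-type Cd73P and 0.0326 in Cd73P labelled Ezh2-cKO. In Cd73N the FPKM ratio was 2.94 (95% counting interval 2.45 to 3.54) and the log2 ratio of FPKM + 1 was 0.96, past the 1.5-fold threshold. In Cd73P the FPKM ratio was 0.338 (0.138 to 0.754), from about 24 and 9 fragments, and the log2 ratio was -0.09. The direction of Robo3 was thus opposite in the fractions, with few fragments in Cd73P.

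Robo1, on the plus strand of chromosome 16 (mm9, chr16:72663394-73046345), was at 1.62 FPKM in wild-type Cd73N, 3.02 in Cd73N labelled Ezh2-cKO, 0.163 in wild-type Cd73P and 0.131 in Cd73P labelled Ezh2-cKO. The Cd73N ratio was 1.87 (95% counting interval 1.66 to 2.1), a log2 ratio of FPKM + 1 of 0.62, just past the threshold of 0.58. In Cd73P the ratio was 0.808 (0.549 to 1.19), an interval that includes equal levels.

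Robo2, the most abundant receptor, lies on the minus strand of the same chromosome (mm9, chr16:73892551-74411157). It was at 25.9 FPKM in wild-type Cd73N, 24.8 in Cd73N labelled Ezh2-cKO, 0.980 in wild-type Cd73P and 0.413 in Cd73P labelled Ezh2-cKO. The Cd73N ratio was 0.959 (95% counting interval 0.926 to 0.994), a log2 ratio of FPKM + 1 of -0.06. After scaling by median ratios or to equal FPKM sums the sign of this small difference turned, to 0.02 and 0.09. In Cd73P the FPKM ratio was 0.422 (0.347 to 0.511) and the log2 ratio of FPKM + 1 was -0.49, not past the threshold. On the log2 scale of FPKM + 1, Robo2 and Slit2 had the larger genotype differences among the members in Cd73P, a scale that shrinks those of low genes, and as a plain FPKM ratio Robo3 was farther from 1, from few fragments.

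Robo4, the endothelial receptor, lies tail to tail with Robo3 on chromosome 9 (mm9, chr9:37209631-37221607, plus strand) without shared exon bases. It was at 0.124 FPKM in wild-type Cd73N, 0.207 in Cd73N labelled Ezh2-cKO, 0.0625 in wild-type Cd73P and 0.0725 in Cd73P labelled Ezh2-cKO. The genotype ratios were 1.67 (95% counting interval 0.976 to 2.94) and 1.16 (0.507 to 2.71), both intervals including equal levels. Other endothelial genes did not move as a block in Cd73N: of 10 markers, Kdr and Flt1 were higher (22.6 to 86.2 and 2.86 to 16.2 FPKM), Esam was lower (23.9 to 13.3 FPKM) and 7 did not pass the threshold, among them Pecam1 at 0.928 and 1.07 FPKM and Tie1 at 3.12 and 2.98 FPKM.

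**Figure D2:**
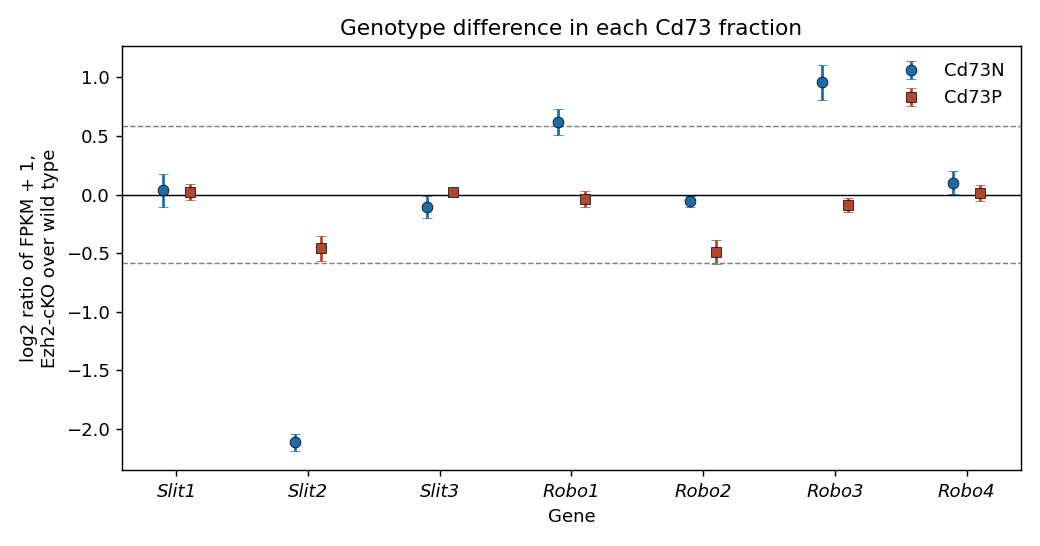
Log2 ratio of FPKM + 1, library labelled Ezh2-cKO over wild type, for each member in Cd73N (circles) and Cd73P (squares), with bars of 95% from counting error alone and dashed lines at 1.5-fold. In Cd73N, Slit2 sits at -2.11, Robo1 at 0.62 and Robo3 at 0.96, and in Cd73P no member lies past a dashed line. All members but Slit2 and Robo2 are too low in Cd73P to pass a dashed line on this scale.

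The call counts of the family were read against all genes. In Cd73N, 2 of 7 members (Robo1 and Robo3) were higher and 1 of 7 (Slit2) was lower by at least 1.5-fold on the log2 scale of FPKM + 1. Over the 21705 genes tested, 7.18% were higher and 1.71% were lower. Slit3 and Robo4 stayed under 1 FPKM in both Cd73N libraries, and among the 12845 genes that reached 1 FPKM in either library 11.6% were higher and 2.86% lower. In Cd73P, 0 of 7 members passed the threshold with the pseudocount of 1. Slit1, Slit3, Robo1, Robo3 and Robo4 could not have passed it, since they were at no more than 0.163 FPKM in either Cd73P library. With a pseudocount of 0.1 Slit2 (-0.93) and Robo2 (-1.07) were lower in Cd73P. With the pseudocount of 1, 2.26% of 21706 genes were higher in Cd73P and 2.39% lower, and 4.32% and 4.54% of the 10682 genes that reached 1 FPKM. Slit2 in wild type was the single member that reached 1 FPKM in Cd73P. The rule that picked the family used the Cd73N contrast, so nothing is read from the Cd73N count.

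**Figure D3:**
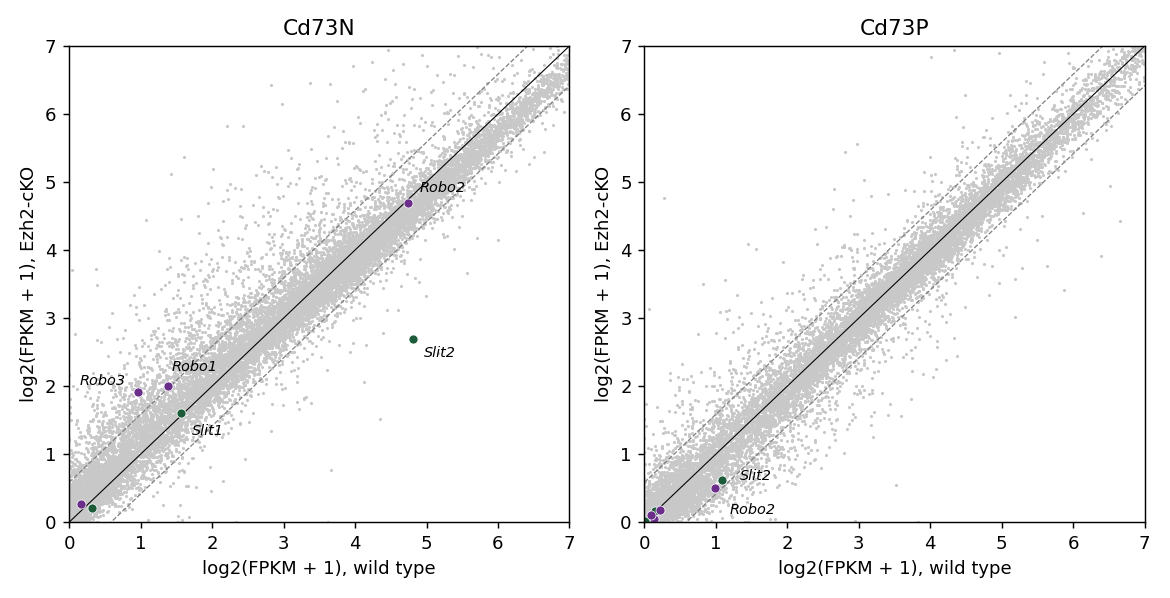
Each grey point is a gene with a usable value in all 4 libraries, placed by log2(FPKM + 1) in the wild-type library (horizontal) and in the library labelled Ezh2-cKO (vertical) of the same fraction, with axes that end at 7, green points for Slit genes, purple points for Robo genes, a solid line of equal level and dashed lines at 1.5-fold. Slit2 lies far below the lower dashed line in Cd73N and inside the lines in Cd73P, and Robo2 lies inside the lines in both.

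The genotype difference was compared between fractions gene by gene. For Slit2 the log2 ratio in Cd73P minus that in Cd73N was 1.66 (SE 0.066 from counting error). For Robo3 it was -1.04 (SE 0.081), for Robo1 -0.66 (SE 0.067) and for Robo2 -0.43 (SE 0.057). For Slit3, Robo4 and Slit1 it was 0.13, -0.09 and -0.01. The 4 members with a sizeable difference between fractions on this scale were thus Slit2, Robo3, Robo1 and Robo2. With 1 library per group their spread between animals is unknown. The Cd73N value of Slit2, which picked the family, enters its difference. On this scale a difference is smaller for genes with low FPKM, as all members were in Cd73P. As plain FPKM ratios, Cd73N and Cd73P stood at 0.202 and 0.483 for Slit2 and at 2.94 and 0.338 for Robo3. For Robo1 these ratios were 1.87 and 0.808, and for Robo2 0.959 and 0.422. The Cd73P ratio of Robo3 rested on few fragments.

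Between fractions, 5 of 7 members were called lower in Cd73P than in Cd73N in both genotypes: Slit1, Slit2, Robo1, Robo2 and Robo3. Slit3 and Robo4 were too low in both fractions to be called on the scale of FPKM + 1. In wild type 9.07% of all genes were higher and 27.9% lower in Cd73P. In the libraries labelled Ezh2-cKO 8.4% were higher and 29.1% lower. These shares include genes too low in both fractions to be called, those listed at 0 among them. Of the 6056 and 6317 lower calls, 5736 and 5911 were of genes that reached 1 FPKM in either fraction. The lower share among such genes was thus above that over all genes. The median log2 ratio over expressed genes was -0.47 in wild type and -0.46 under the Ezh2-cKO label. The comparisons between fractions and those between genotypes share their libraries. The Cd73P level of Robo2 was 3.79% of its Cd73N level in wild type and 1.67% under the Ezh2-cKO label. For Slit2 it was 4.13% and 9.86%, the larger share being that under the Ezh2-cKO label, where the Cd73N level was lower. For Slit1 it was 5.31% and 5.96%, for Robo1 10.1% and 4.35%, and for Robo3 10.2% and 1.17%. For Slit3 it was 1.80% and 10.8%, from about 1 and 6 fragments in Cd73P, with bounds that did not overlap between fractions. Robo4 was the member most nearly alike in the fractions, at 50.5% and 35.0%, from at most 42 fragments in any library. In comparison, the summed FPKM in Cd73P of 12 bipolar cell markers was 7.20% and 4.56% of that in Cd73N, of 11 Müller glia markers 9.0% and 3.91%, and of 8 cone markers 6.14% and 2.13%. The part of non-rod cells left in Cd73P in the member values was not tested. Of the rod markers with a usable value in both fractions, 8 of 8 were higher in Cd73P in both genotypes.

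The levels were also summed over ligands and over receptors. The 3 Slit genes summed to 29.2 FPKM in wild type and 7.65 FPKM under the Ezh2-cKO label, and the 4 Robo genes to 28.5 and 30.8 FPKM. The ratio of Slit to Robo was thus 1.02 in wild-type Cd73N and 0.248 in the library labelled Ezh2-cKO. In Cd73P the Slit sums were 1.22 and 0.677 FPKM, the Robo sums 1.30 and 0.650 FPKM, and the ratios 0.939 and 1.04. These sums mostly follow Slit2 and Robo2, which made up 91.1% and 79.5% of the Slit sum and 75.3% and 63.6% of the Robo sum in the wild-type and Ezh2-cKO-labelled Cd73P libraries, and Slit1, Slit3 and Robo4 were not lower there. In Cd73N, Slit2 made up 92.4% of the Slit sum in wild type and 71.3% under the Ezh2-cKO label, with Slit1 at 6.70% and 26.6%. Robo2 made up 90.6% and 80.5% of the Robo sum, Robo1 5.67% and 9.80%, and Robo3 3.31% and 9.01%.

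**Figure D4:**
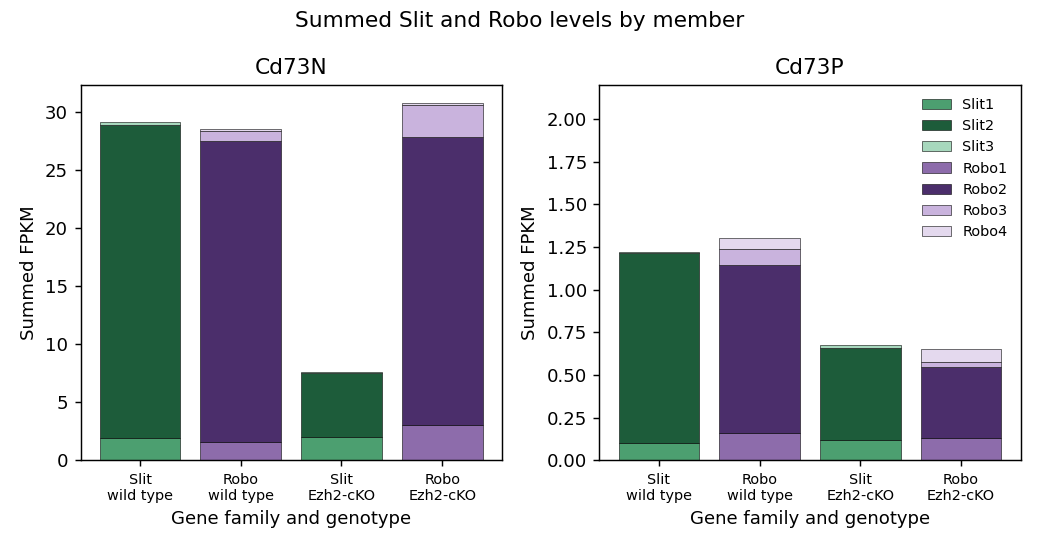
Summed FPKM of the 3 Slit genes and the 4 Robo genes in each library, stacked by member, with separate vertical scales for Cd73N and Cd73P. In Cd73N the Slit stack is 29.2 FPKM in wild type and 7.65 FPKM under the Ezh2-cKO label beside Robo stacks of 28.5 and 30.8 FPKM, and in Cd73P both stacks are lower under that label.

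Markers of the retinal cell types differed between the Cd73N libraries too. All 12 bipolar cell markers had lower values in the library labelled Ezh2-cKO, 8 of them past the threshold, and their sum was 2721 FPKM in wild type and 1464 FPKM there. Grm6 (120 to 64.3 FPKM) and Scgn (501 to 191 FPKM) were among those lower. All 11 Müller glia markers were higher, with sums of 1047 and 5469 FPKM, including Glul (257 to 1760 FPKM) and Rlbp1 (115 to 499 FPKM). Of 10 amacrine cell markers 2 were higher and 0 lower, of 8 cone markers 3 were higher and 0 lower, and of 9 rod markers 0 were higher and 6 lower. The summed bipolar markers were at 53.8% of wild type, beside 20.2% for Slit2, 95.9% for Robo2, 187% for Robo1 and 294% for Robo3. In Cd73P, 9 of 12 bipolar markers were lower, with sums of 196 and 66.7 FPKM (34.1%), 6 of 8 cone markers were lower (52.3% of the wild-type sum) and 8 of 11 Müller glia markers were higher (227%). The Cd73P levels of Slit2 and Robo2 were at 48.3% and 42.2% of wild type. The part of these marker shifts in the member values was not tested, and in bulk samples fewer cells of a type and less RNA per cell cannot be told apart. For ganglion cells, which send the axons that Slits are known to guide, 2 of 10 markers were higher and 1 was lower in Cd73N. Their sums were 17.4 and 43.5 FPKM, of which Thy1 held 6.52 and 30.3 FPKM. Pou4f3 was listed at 0 in all 4 libraries and Pou4f2 was at 0.0861 and 0.153 FPKM in Cd73N. Gja10 of horizontal cells was listed at 0 in wild-type Cd73N, and Mlana of pigment cells was listed at 0 in Cd73N labelled Ezh2-cKO.

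The genes with the most similar pattern were found by the distance between log2(FPKM + 1) profiles over the 4 libraries, each centred on its own mean, among 9887 genes with an FPKM of at least 5 in a library. Slit2 and Robo2 were the members that reached that level. The gene closest to Slit2 was Tacr3 (distance 0.105), at 16.5 and 3.17 FPKM in Cd73N and 0.275 and 0.0236 FPKM in Cd73P. It was followed by Tnnc1 (0.505), encoding a troponin C, Tle6 (0.527), encoding a Groucho-type co-repressor, Nxph1 (0.545), encoding the neurexin ligand neurexophilin, and Ifit2 (0.662), an interferon-induced gene. Those closest to Robo2 were Socs2 (0.093), Ptprd (0.110), Shd (0.126), Prkar2b (0.133) and Pcdh7 (0.139), all between 20.7 and 36.8 FPKM in Cd73N and under 1.89 FPKM in Cd73P. The Cd73N values that picked the family enter these distances, which are a description. With a pseudocount of 0.1, 0 of the 5 nearest genes were shared for either member, so these neighbours depend on that choice.

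A microRNA links the ligand genes with the receptor transcripts by sequence. The miR-218 hairpins lie inside introns of Slit2 (Mir218-1, mm9, chr5:48615181-48615290) and Slit3 (Mir218-2, mm9, chr11:35430318-35430427), on the same strand as their hosts, and miR-218 is known to act on Robo transcripts in other tissues. The mature sequence is given from RefSeq (GRCm38.p6) with the seed, bases 2 to 8, in capitals:
mmu-miR-218-5p: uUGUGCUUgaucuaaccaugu
The complement of that seed, AAGCACA, was searched for on the transcript strand in the longest annotated 3′ UTR of each gene (GENCODE M1, mm9). It occurred 1 time in Robo1, 2 times in Robo2 and 1 time in Robo3, and 0 times in Robo4, Slit1, Slit2 and Slit3. The matches are shown in capitals with their neighbouring bases, since they set 3 of the receptors apart from Robo4 and the ligands by sequence:
Robo1 site 1: tttggttttaaAAGCACAatcactaaact
Robo2 site 1: tatttggtgatAAGCACAaatctctactc
Robo2 site 2: acggcagacccAAGCACAgcttctttcag
Robo3 site 1: gtgactcactgAAGCACActgtctacaac
Counted from the first base of the UTR, the matches start at base 986 in Robo1, 461 and 2787 in Robo2 and 137 in Robo3. Of 19856 genes with a 3′ UTR 12.6% held such a match, and of those with a UTR of similar length 18.1% for Robo1, 34.6% for Robo2 and 3.19% for Robo3. For the members without a match that share was 5.66% for Robo4, 11.2% for Slit1, 20.9% for Slit2 and 3.24% for Slit3. Most genes of similar UTR length thus lacked a match too. A match of letters is no evidence of binding. Mature microRNA was not measured in these libraries: Mir218-2 was listed at 0 in all 4, and Mir218-1 at 0 in 3 and at 6.30 FPKM in wild-type Cd73N, above its own upper bound of 1.37, which leaves that value without a usable reading.

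The bases before the start of the higher receptors are shown for comparison with Slit2, again with CpG in capitals. They lie at chr16:72663144-72663393 (plus strand) for Robo1 and at chr9:37240761-37241010 (minus strand) for Robo3, in mm9:
Robo1: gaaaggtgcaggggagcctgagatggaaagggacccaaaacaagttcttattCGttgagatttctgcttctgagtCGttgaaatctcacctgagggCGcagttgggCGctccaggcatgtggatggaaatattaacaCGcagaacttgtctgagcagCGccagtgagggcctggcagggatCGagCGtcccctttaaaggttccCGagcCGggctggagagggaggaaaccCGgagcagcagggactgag
Robo3: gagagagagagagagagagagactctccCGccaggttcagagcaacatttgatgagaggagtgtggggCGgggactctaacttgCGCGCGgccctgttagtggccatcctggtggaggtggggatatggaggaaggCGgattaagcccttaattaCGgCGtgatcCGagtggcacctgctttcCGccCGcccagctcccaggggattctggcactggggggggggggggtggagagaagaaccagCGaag
These windows hold 11 and 12 CpG, near the median of 11 over all genes. Robo2 had 7 and Robo4 had 3, in windows that overlap an annotated exon and so are not wholly before an annotated start.

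The wider Slit and Robo pathway was read from lists of its partner genes. Of 43 genes for binding partners, heparan sulfate synthesis and Robo effectors, 2 (4.65%) were higher and 1 (2.33%) lower in Cd73N, beside 7.18% and 1.71% of all genes and 11.6% and 2.86% of those that reached 1 FPKM. Among 9 binding partners, Dag1, encoding dystroglycan, which binds Slit, was higher (21.8 to 33.8 FPKM, log2 ratio 0.61), and Sdc3, encoding a heparan sulfate proteoglycan, was lower (34.8 to 22.7 FPKM, -0.59). The receptor Dcc, known to bind Robo1, was at 6.57 and 7.44 FPKM, and Nell2, a ligand of Robo3, at 18.1 and 15.4 FPKM, neither past the threshold. Of 11 heparan sulfate genes Ndst3, a sulfotransferase, was higher (3.53 to 6.79 FPKM, log2 ratio 0.78), and Ext1, a polymerase of the chain, was at 7.57 and 9.02 FPKM. Of 23 effectors, 0 were called in either direction in Cd73N, with a median log2 ratio of -0.09 beside -0.04 over expressed genes. Srgap1 was at 0.580 and 0.488 FPKM, Srgap2 at 7.72 and 8.94 FPKM and Srgap3 at 18.7 and 24.2 FPKM.

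In Cd73P, 1 of the 43 genes was higher and 3 were lower (2.33% and 6.98%, beside 2.26% and 2.39% of all genes and 4.32% and 4.54% of those that reached 1 FPKM). Sdc3 was higher there (15.2 to 24.3 FPKM, log2 ratio 0.65), opposite to Cd73N. The lower genes were Nell2 (2.04 to 0.619 FPKM, -0.91), Srgap3 (4.48 to 2.03 FPKM, -0.86) and Cables1, encoding an Abl adaptor (1.83 to 0.763 FPKM, -0.68). Between fractions, 27 of 43 genes (62.8%) were lower in Cd73P in either genotype, beside 27.9% and 29.1% of all genes, unexpressed ones included. The median log2 ratio of the 43 was -1.06 in wild type and -1.17 under the Ezh2-cKO label, beside -0.47 and -0.46 over expressed genes. All 9 binding partners were lower in Cd73P in wild type and 8 of 9 under the Ezh2-cKO label.

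Genes of other guidance families were called in both directions in Cd73N. Of 66 netrin, semaphorin and ephrin genes, 17 (25.8%) were higher and 6 (9.09%) lower, beside 7.18% and 1.71% of all genes and 11.6% and 2.86% of those that reached 1 FPKM. In the netrin family the ligand gene Ntn4 (1.87 to 11.2 FPKM, log2 ratio 2.09) and the receptor gene Unc5c (1.87 to 9.69 FPKM, 1.90) were higher, and Ntng1 (21.7 to 11.8 FPKM, -0.82) and Unc5d (5.27 to 2.71 FPKM, -0.76) were lower. Among semaphorins and plexins, 6 of 31 were higher, led by Sema5a (4.62 to 14.6 FPKM, 1.47), Sema4a (2.11 to 5.56 FPKM, 1.08) and Sema3e (2.48 to 5.59 FPKM, 0.92), and Plxna4 (6.96 to 2.29 FPKM, -1.27) and Sema3d (2.64 to 1.09 FPKM, -0.80) were lower. Among ephrins and Eph receptors, 9 of 22 were higher with a median of 0.41, led by Efna1 (2.06 to 6.01 FPKM, 1.20), Ephb1 (2.60 to 6.95 FPKM, 1.14) and Efna3 (0.127 to 1.41 FPKM, 1.10), and Epha3 (14.3 to 7.91 FPKM, -0.78) and Ephb6 (9.60 to 5.99 FPKM, -0.60) were lower. In Cd73P, 2 of 66 (3.03%) were higher and 4 (6.06%) lower. Beside these, 2.26% and 2.39% of all genes were called, and 4.32% and 4.54% of those that reached 1 FPKM. The higher genes were Dscam (6.42 to 15.1 FPKM, 1.12) and Sema6d (0.235 to 0.943 FPKM, 0.65), and the lower ones Ntng1 (1.85 to 0.339 FPKM, -1.09), Sema4c (3.27 to 1.15 FPKM, -0.99), Epha7 (2.31 to 0.916 FPKM, -0.79) and Efna1 (0.80 to 0.186 FPKM, -0.60). Efna1 thus joined Sdc3 as a called gene with opposite directions in the fractions. Ntn1 and Efna3 were listed at 0 in wild-type Cd73P and Plxnb3 and Epha1 in Cd73P labelled Ezh2-cKO.

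**Figure D5:**
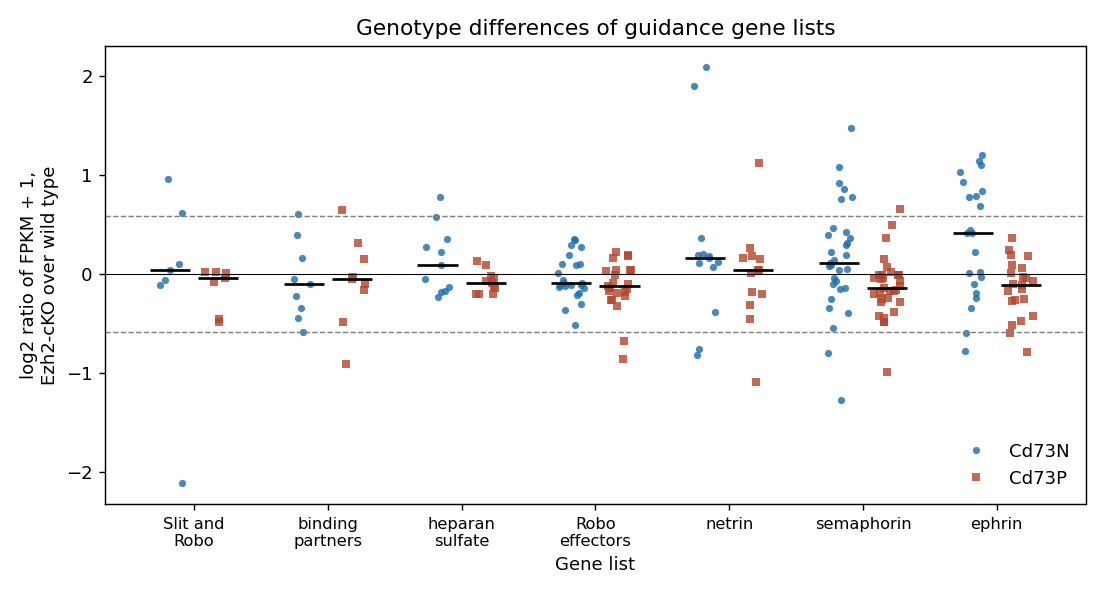
Log2 ratio of FPKM + 1, library labelled Ezh2-cKO over wild type, for the 7 members and the genes of 6 lists in Cd73N (blue circles) and Cd73P (red squares), with black bars at the medians and dashed lines at 1.5-fold. Slit2, whose value in Cd73N picked the family, lies at -2.11, and the ephrin list has the highest median in Cd73N, 0.41.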

How the data were processed

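RNA of sorted retinal cells was prepared with a kit that does not mark strand and read as 36-base single ends. The submitters' processing notes name bcl2fastq 1.8.4, TopHat2 2.0.8b, Cufflinks 2.1.1 and build mm9. The authors deposited 1 table per library with FPKM, its confidence bounds and a status for 23021 RefSeq rows. Rows of small RNAs aside, 21831 genes remained, and 235 symbols with several rows were summed. The 7 members and all gene lists were chosen with earlier results of these data known.

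Ratios were taken as log2(FPKM + 1), with no scaling and no filter, among genes whose status was OK in both libraries, and a gene was called at 1.5-fold. With 1 library per group no test across libraries was possible. Counting error was taken from the deposited bounds, read as 4 standard errors wide, and fragments were implied from it. Intervals of ratios are exact binomial at 95%, and intervals cover counting error only. PCR copies were not told apart. All members, up to 3 called genes per direction and list, the 5 genes nearest Slit2 and Robo2, the neighbours of Slit2 in rank, genes with opposite calls in the fractions and listed-at-0 genes were named by rule, and the marker and uncalled pathway genes given as examples were chosen after their values were seen. Scripts ran in Python 3.11.15 with numpy 2.4.6, pandas 2.3.3 and scipy 1.17.1 and were tested on simulated data. Of 36-base stretches of member transcripts, none was shared between members, and 0.0736% of those of Robo1 were shared with other coding genes. The alternatives were pseudocounts of 0.1 and 5, scaling by median ratios or to equal FPKM sums, a 2-fold threshold, an FPKM minimum of 1 in either library, plain ratios of genes with an FPKM of at least 1 in both, and bounds that do not overlap. Values of some marker genes are not reported here.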

Additional observations from a re-analysis of the deposited data

Results flagged for a closer look

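The genotype log2 ratio of FPKM + 1 had opposite signs in Cd73P and Cd73N for 3 members. The ratio in Cd73P minus that in Cd73N was 0.13 for Slit3, -0.66 for Robo1 and -1.04 for Robo3. It was -0.69 for Ezh2, the targeted gene, which was higher under the Ezh2-cKO label in Cd73N and lower in Cd73P. Likewise 3 gene lists had medians of opposite sign, with differences of -0.18 for heparan sulfate synthesis, -0.25 for semaphorins and plexins and -0.52 for ephrins and Eph receptors. None of these differences was tested, since each fraction and genotype had 1 library.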

How the results depend on the processing

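In Cd73N, Slit2 was called lower under all 8 alternatives, which describes the value that picked the family and is no further support for it. Of 132 values of the member log2 ratios under alternatives, 2 had another sign than reported, both for Robo2. With a pseudocount of 5 or a 2-fold threshold 0 members were higher in Cd73N. With plain ratios of genes at an FPKM of at least 1 in both libraries, 1 of 4 members tested was higher there (Robo1). With a pseudocount of 0.1, 2 members (Slit2 and Robo2) were lower in Cd73P. Between fractions in wild type 2 members were lower in Cd73P with a pseudocount of 5. Plain ratios could be taken for 1 member in wild type, Slit2, which was lower, and for 0 members under the Ezh2-cKO label.

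For the 43 pathway genes, higher and lower calls in Cd73N were 4 and 2 with a pseudocount of 0.1, 0 and 0 with a pseudocount of 5 and with a 2-fold threshold, and 0 were lower under either scaling. In Cd73P they were 2 and 5 with a pseudocount of 0.1 and 0 and 0 with a pseudocount of 5 and at 2-fold. For the 66 other guidance genes they were 6 and 2 in Cd73N with a pseudocount of 5 and 8 and 1 at 2-fold. In Cd73P they were 6 and 20 with a pseudocount of 0.1, 1 and 0 with a pseudocount of 5 and 1 and 1 at 2-fold. The cause of these changes beyond the threshold or pseudocount itself was not tested.

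Scaling to equal FPKM sums moved the median log2 ratio of expressed genes in Cd73N from -0.04 to 0.09, and the calls over all genes from 1558 higher and 371 lower to 1893 and 188. In wild-type fractions the median moved from -0.47 to -0.10, or to -0.19 with median ratios, and calls went from 1969 higher and 6056 lower to 3239 and 4302, or 2866 and 4731. In the fractions labelled Ezh2-cKO the median moved from -0.46 to -0.28, or -0.23 with median ratios, and calls from 1824 and 6317 to 2423 and 5427, or 2608 and 5203. Over all genes, calls in Cd73N were 3253 and 768 with a pseudocount of 0.1, 620 and 177 with a pseudocount of 5 and 643 and 71 at 2-fold, and in Cd73P 1430 and 1714, 182 and 132, and 162 and 144, against 491 and 518.

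No paired analysis was possible because each group held 1 library, and with 1 library per group none was left out in turn. Depth limits Slit3 and Robo4 throughout and Slit1, Robo1 and Robo3 in Cd73P, where values rest on at most 61 fragments. Sex and genotype cannot be told apart. The Ezh2 level in Cd73N was not lower under the Ezh2-cKO label, and a gene-level value does not show which exons were read.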
